A study of Mus musculus with 12 samples.

Results

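Alternative activation is the state that macrophages take on under type 2 cytokines, and 10 genes commonly read as its markers were followed here through the myeloid cells of mouse tumours. They were the receptors Mrc1, Stab1, Folr2 and Cd163, the enzyme Arg1, the secreted proteins Chil3 and Retnla, the cytokine Il10 and the chemokines Ccl24 and Ccl17. Each gene was matched by its symbol to 1 row of the count matrices, 10 of 32285 gene rows in all. The list was set by gene name, without a threshold on a measured value.

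The tumours came from a series on the rejection of melanoma, and their cells belong to lines that the labels call SCC35. Lines SCC35 Mif KO control 15 and SCC35 Mif KO control 18 formed the control group, and lines SCC35 Mif KO 19 and SCC35 Mif KO 24 formed the knockout (KO) group. The secreted cytokine macrophage migration inhibitory factor is the product of Mif, and the comparison asks how the 10 genes differ in myeloid cells between tumours of Mif KO and control lines. The knockout belongs to the line, and no label says that the myeloid cells carry it. The labels give no genotype, strain or age of a host animal and do not say whether a line is 1 clone. Tumours were dissociated, marked per tumour with hashtag antibodies that carry a DNA barcode, sorted for live cells and sequenced with the 10x 5′ kit. For every hashtag a deposited sheet lists the line, the day (0, 6, 10 or 16) and a letter. After day 0 there were 18 control tumours and 17 KO tumours. A further 3 tumours, called WT in the sheet, have no group in the labels and entered no test.

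As background, IL-4 and IL-13 bind receptors that contain IL-4Rα, which activate the transcription factor STAT6 through JAK kinases. STAT6 target genes in mouse macrophages include Arg1, Retnla, Chil3, Ccl17, Ccl24 and Mrc1. Folr2 and Stab1 mark resident-type macrophages of many tissues, and Cd163 is induced by glucocorticoids and IL-10. Tumour macrophages often carry part of this set, and single genes of it also respond to other signals, such as hypoxia or lactate for Arg1.

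Cell classes were gated on raw counts of unique molecular identifiers (UMIs, each standing for 1 captured RNA molecule), and no gene of the set entered a gate. C1q macrophages had at least 3 UMIs of C1qa, C1qb and C1qc together. C1q-negative monocytes had none of these and at least 5 UMIs of Lyz2, Ly6c2, Ccr2, Csf1r and Ms4a6c together, and dendritic cells were gated on class II and dendritic genes. After day 0 the gates held 10180 C1q macrophages (median 2804 UMIs per cell), 3971 monocytes (median 1816) and 999 dendritic cells (median 2835). Day 0 held 19, 3 and 4 cells of these classes and was not used. Among markers that no gate used, 6 of 7 macrophage, 6 of 6 monocyte and 7 of 8 dendritic markers were highest in their own class among the 3 myeloid classes. The exceptions were Fcgr1, at 220.9 UMIs per 1000000 UMIs of the class (CPM) in macrophages and 228.5 in monocytes, and Cadm1, at 36.49 CPM in dendritic cells and 76.87 in macrophages.

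The 6 gene expression libraries held 151385933 to 239699029 gene UMIs and 11370 to 19333 assigned cells each. The 15 pairs of libraries shared 263 to 519 cell barcodes each. Mif, measured in non-immune cells after day 0, ranged from 70.5 to 763 CPM in KO tumours and from 1743 to 2743 CPM in control tumours. In line 19 it stood at 70.5 to 101 CPM in the line's own library and at 282 to 294 CPM in the mixed library. In line 24 it stood at 391 to 481 CPM and at 711 to 763 CPM. The cause of these differences was not tested. Libraries made from 1 line hold only 1 group, so library and line cannot be told apart there, and 2 mixed libraries hold tumours of both groups. With 2 lines per group, the p-values over tumours cover these 4 lines and do not reach to other lines. Nothing in the labels says that the tumours of a line came from separate mice, so the p-values measure the spread between these samples, which may be technical.

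STAT6 binds TTC and GAA with 4 bases between them, and other STAT proteins prefer these letters with 3 bases between them. Both forms read the same on either strand, so a search of 1 strand covers both. RefSeq promoter entries (GRCm38.p6) were found for 7 of the 10 genes. The 250 bases before the start site were searched. In the same window of all 32851 promoter entries, the form with 4 bases occurred in 5.85% and the form with 3 bases in 7.02%. Matches stood before the start sites of Retnla, Chil3 and Ccl17, and they are shown because these are secreted effectors with a letter match in the window. The first Ccl17 match and the Retnla match have 4 bases between TTC and GAA, and the Chil3 match and the second Ccl17 match have 3. Each line gives up to 25 bases on either side, 5′ to 3′ on the gene's strand, with the match in capitals.
Retnla (chr16:48842439-48842498, plus strand, match 145 bases before the start): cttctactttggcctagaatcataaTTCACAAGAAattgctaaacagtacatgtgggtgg
Chil3 (chr3:106167703-106167761, minus strand, match 172 bases before the start): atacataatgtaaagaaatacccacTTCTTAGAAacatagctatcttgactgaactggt
Ccl17 (chr8:94810274-94810333, plus strand, match 154 bases before the start): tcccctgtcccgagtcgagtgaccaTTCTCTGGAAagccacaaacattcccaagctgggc
Ccl17 (chr8:94810329-94810387, plus strand, match 99 bases before the start): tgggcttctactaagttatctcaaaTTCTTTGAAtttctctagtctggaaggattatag
The entries of Mrc1, Stab1, Folr2 and Cd163 held neither run of letters in this window. A match is a description of letters and not a measured binding site.

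The set did not behave as 1 block across cell classes. Of the 3 myeloid classes, Mrc1, Stab1 and Folr2 stood highest in C1q macrophages, Chil3 in monocytes and Ccl17 in dendritic cells. Pooled over all tumours after day 0, Mrc1, the mannose receptor that takes up glycoproteins, stood at 331 CPM in macrophages, 67.7 in monocytes, 11.0 in dendritic cells and 5.79 in T cells. Stab1, a scavenger receptor, stood at 147, 19.5, 0.566 and 2.75 CPM in the same order. Folr2, a folate receptor, stood at 71.7, 7.96, 0.566 and 0.589 CPM. Levels are compared here for 1 gene between classes and not between genes.

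Cells were thinned to 2000 UMIs each to compare the share of cells with at least 1 UMI at equal depth, which left 7190 macrophages, 1658 monocytes, 777 dendritic cells and 1407 T cells. T cells (median 1564 UMIs before thinning, against 2804 in macrophages) serve as the background from free RNA. Mrc1 was seen in 39.2% of thinned macrophages (exact binomial 95% interval 38.0 to 40.3) and 0.853% of T cells. Without thinning the macrophage share was 47.6%. Stab1 was seen in 21.0% of thinned macrophages (27.2% unthinned) and 0.213% of T cells, and Folr2 in 11.4% (15.4% unthinned) and 0.0711%. All 3 receptors were thus far above the T cell share in macrophages. Intervals cover counting error only.

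**Figure D1:**
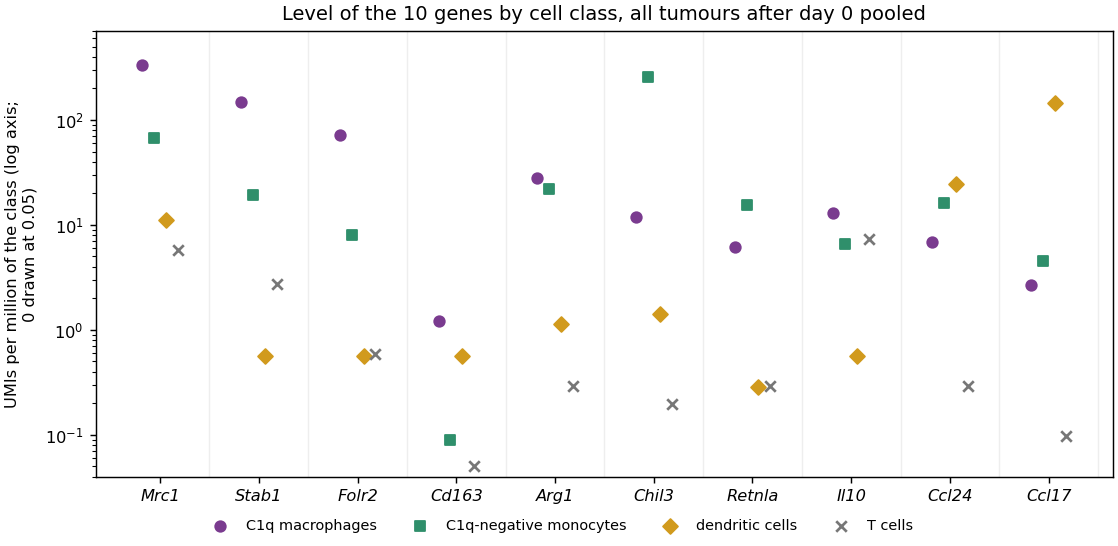
Pooled level of each of the 10 genes (CPM, log axis, with 0 drawn at the bottom) in C1q macrophages, C1q-negative monocytes, dendritic cells and T cells of all tumours after day 0. Mrc1 falls from 331 in macrophages to 67.7 in monocytes, Chil3 is at 11.96 in macrophages and 257 in monocytes, and Ccl17 is at 146 in dendritic cells.

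Macrophages and monocytes of the same tumour were compared over 34 tumours, with the tumour as a block in edgeR's quasi-likelihood test. Of the 10 genes, 9 passed the filter on low counts and 5 were called at an adjusted p under 0.05, against 28.6% of all genes tested. Mrc1 had a median of 246 CPM in macrophages and 51.2 in monocytes and was higher in macrophages in 34 of 34 tumours, by 4.25-fold (log2 fold change 2.09, SE 0.11, edgeR adjusted p = 1.33e-21). Stab1 had medians of 91.2 and 20.7 CPM and was also higher in 34 of 34 tumours, by 5.37-fold (SE 0.13 on the log2 scale, edgeR adjusted p = 3.27e-22). Folr2 had medians of 59.3 and 5.002 CPM and was higher in 32 of 34 tumours, by 7.91-fold (SE 0.15 on the log2 scale, edgeR adjusted p = 7.42e-23). The receptors therefore separated the classes within nearly every tumour, although none of them was part of a gate.

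Chil3, a chitinase-like secreted protein also called Ym1, went the other way. Its median was 12.6 CPM in macrophages and 186 CPM in monocytes, and it was lower in macrophages in 34 of 34 tumours, by 15.5-fold (log2 fold change −3.95, SE 0.16, edgeR adjusted p = 6.50e-27). It was seen in 18.2% of thinned monocytes, 1.502% of thinned macrophages and 0 of 1407 thinned T cells, which allows a T cell share of up to 0.213%. Il10, an anti-inflammatory cytokine, had medians of 13.4 CPM in macrophages and 3.54 in monocytes and was higher in macrophages in 29 of 34 tumours, by 2.18-fold (SE 0.23 on the log2 scale, edgeR adjusted p = 0.00013). It was seen in 2.36% of thinned macrophages, 1.09% of monocytes, 0.853% of T cells, which can make Il10 themselves, and 0.0286% of non-immune cells.

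Arg1, which splits arginine into ornithine and urea, had medians of 20.6 CPM in macrophages and 8.23 in monocytes, and the difference did not pass (log2 fold change 0.52, SE 0.21, edgeR adjusted p = 0.054). It did pass without the count filter (edgeR adjusted p = 0.00027), with DESeq2 (0.0347), without line 15 (0.00752) and without line 18 (0.00523). Retnla (log2 fold change −1.16), Ccl24 (−0.56) and Ccl17 (−0.76) did not pass either. Retnla passed without the count filter, with a stricter cell filter (log2 fold change −1.96, edgeR adjusted p = 0.0226) and with monocytes of at most 2 C1q UMIs (−1.69, adjusted p = 0.0231), and Ccl24 passed at a C1q sum of at least 10 (−1.14, adjusted p = 0.00712). Cd163, a haemoglobin scavenger receptor, fell below the count filter with 37 UMIs in macrophages and 1 in monocytes of these tumours. The monocyte gate also held cells with osteoclast genes (Ctsk, Acp5, Ocstamp, Atp6v0d2 and Mmp9). When monocytes with more than 2 UMIs of these were left out, the log2 fold changes were 1.81 for Mrc1, 2.13 for Stab1, 3.10 for Folr2 and −4.24 for Chil3.

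**Figure D2:**
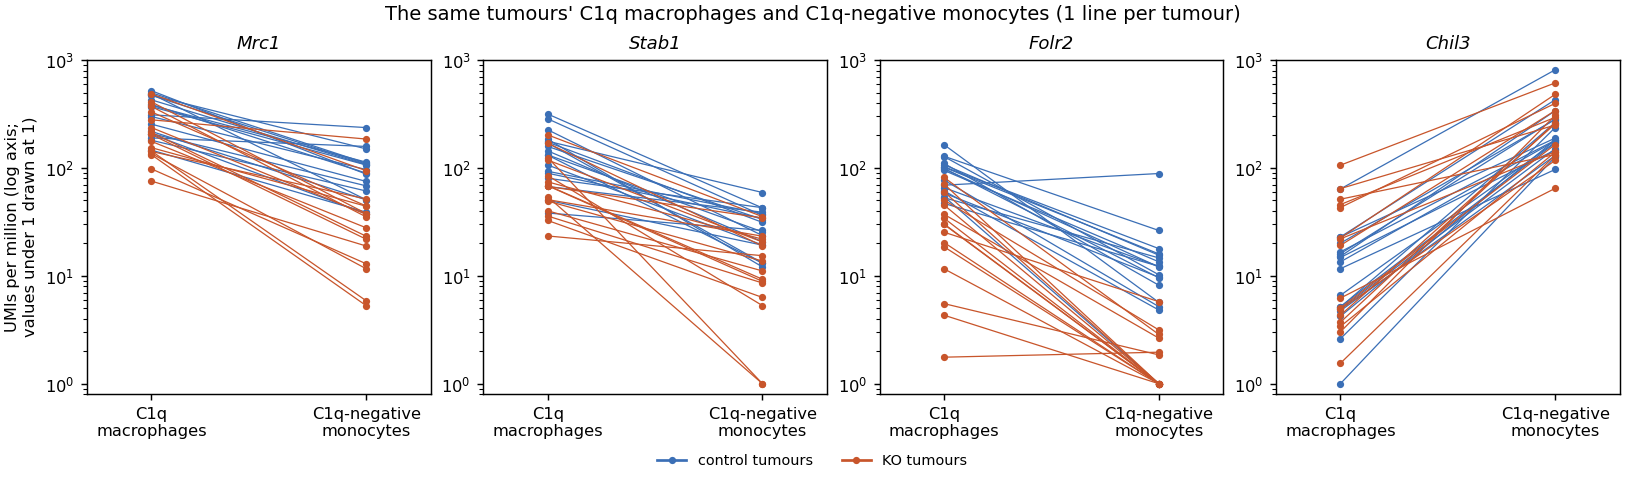
Levels of Mrc1, Stab1, Folr2 and Chil3 (CPM, log axis, values under 1 drawn at 1), with a line joining C1q macrophages and C1q-negative monocytes of the same tumour and control and KO tumours in separate colours. The lines of Mrc1 and Stab1 go down towards monocytes in 34 of 34 tumours, and those of Chil3 go up in 34 of 34.

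Against dendritic cells, 17 tumours could be compared, 7 of the 10 genes passed the filter and 6 were called in edgeR, against 42.9% of all genes tested, whose median log2 fold change was 0.10. Mrc1 was higher in macrophages in 17 of 17 tumours (log2 fold change 4.19, SE 0.26, edgeR adjusted p = 5.27e-15). Stab1, Folr2, Arg1 and Chil3 were also called higher, but dendritic cells held only 2, 1, 4 and 3 UMIs of them. Their pooled ratios of macrophage to dendritic level are therefore given with an exact counting interval. The ratio was 152 (42.1 to 1258) for Stab1, 131 (23.5 to 5186) for Folr2, 17.5 (6.78 to 64.6) for Arg1 and 15.0 (5.06 to 73.1) for Chil3.

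Ccl17, a chemokine that draws CCR4-bearing T cells, was higher in dendritic cells than in macrophages. Its median over the 17 tumours was 113 CPM in dendritic cells and 0 in macrophages, and it was lower in macrophages in 15 of 17, by 32.8-fold (log2 fold change −5.03, SE 0.34, edgeR adjusted p = 7.81e-14). It was seen in 9.40% of thinned dendritic cells, 0.362% of macrophages and 0.0711% of T cells. Its 516 UMIs in dendritic cells came from 127 of 999 cells. Ccl24, an eosinophil chemokine, did not pass the test (log2 fold change 0.13, edgeR adjusted p = 0.858), and 77.9% of its 86 dendritic UMIs came from 5 cells.

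The main question was whether the set differed between KO and control tumours in C1q macrophages. Of the genes that could be tested, 3 receptors passed and Arg1, Chil3 and Il10 did not. Of the 10 genes, 6 passed the count filter and 3 were called in edgeR with day as a covariate, all 3 lower in KO tumours (Folr2, Stab1 and Mrc1), while 35.0% of all genes tested were called. Against that share, the count of members called does not stand apart. The median log2 difference of the 6 members tested was −0.0061, beside −0.0024 over all genes tested.

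Of the 6 members tested, Folr2 had the largest fold change. It ranged over 46.9, 96.4 and 164 CPM (lowest, median and highest) in the 18 control tumours and over 1.76, 29.9 and 81.6 CPM in the 17 KO tumours. The means were 90.0 ± 31.7 (SD, n = 18) and 32.3 ± 23.2 (SD, n = 17). All 17 KO tumours lay below the control median, 13 of them lay below every control tumour, and the ranges overlapped. The 3 tumours called WT, which are in neither group, stood at 42.4, 44.5 and 33.3 CPM, below the lowest control tumour and within the KO range, with Mif in their non-immune cells at 2209 to 2597 CPM. Folr2 was 3.14-fold lower in KO tumours (log2 fold change −1.65, SE 0.27, edgeR adjusted p = 1.45e-05).

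Stab1 ranged over 38.2, 138 and 316 CPM in control tumours and over 23.4, 68.4 and 203 CPM in KO tumours, with means of 146 ± 75.9 (SD, n = 18) and 81.45 ± 49.997 (SD, n = 17). The ranges overlapped widely, with 3 KO tumours below every control and 3 controls above every KO tumour. Stab1 was 1.82-fold lower in KO tumours (log2 fold change −0.87, SE 0.21, edgeR adjusted p = 0.00155). Mrc1 ranged over 146, 341 and 521 CPM in control tumours and over 75.6, 204 and 486 CPM in KO tumours, with means of 335 ± 126 (SD, n = 18) and 236 ± 125 (SD, n = 17). It was 1.43-fold lower (log2 fold change −0.51, SE 0.16, edgeR adjusted p = 0.0130), and 6 KO tumours lay below every control.

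A lower sum per tumour cannot by itself tell fewer cells with a transcript from fewer transcripts per cell. At 2000 UMIs per cell, the median share of macrophages with a Folr2 UMI was 14.4% over control tumours and 6.39% over KO tumours. For Stab1 the medians were 20.5% and 9.38%, and for Mrc1 39.7% and 26.8%. This thinning left out 1473 control and 1300 KO macrophages that were shallower. Without thinning, Folr2 was seen in 1275 of 5662 control and 195 of 3627 KO macrophages, Stab1 in 1904 and 599, and Mrc1 in 3107 and 1284. The share of cells with a UMI thus lay in the same direction for all 3 receptors. With so few UMIs per cell, this share falls under either reading, so it cannot tell them apart.

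The KO lines were not alike. In the 8 tumours of line 24, Folr2 stood at 29.9 and 37.1 CPM on day 6, at 18.6, 11.6 and 20.3 on day 10, and at 4.31, 5.52 and 1.76 on day 16. These 3 day 16 tumours held the lowest Folr2 levels of all tumours tested. In line 19, Folr2 averaged 52.4, 37.4 and 50.2 CPM on days 6, 10 and 16. Line means over all days were 97.1 CPM (line 15), 82.9 (line 18), 46.7 (line 19) and 16.2 (line 24), so both KO lines lay below both control lines.

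Stab1 line means were 137 CPM (line 15), 154 (line 18), 99.5 (line 19) and 61.2 (line 24). Mrc1 line means were 345, 325, 307 and 156 CPM in the same order. For Mrc1, line 19 lay close to the control lines and line 24 well below them. Without line 24, Mrc1 had a log2 fold change of −0.12 (edgeR adjusted p = 0.670) and Stab1 one of −0.48 (edgeR adjusted p = 0.160), whereas Folr2 kept its call at −0.91 (edgeR adjusted p = 0.00542), and 9.84% of all genes were called in that fit. Mrc1 also lost its call without line 15 (log2 fold change −0.45, edgeR adjusted p = 0.125) and with another hashtag call (−0.44, adjusted p = 0.0695). Without line 19 the fold changes were −1.11 for Mrc1, −1.31 for Stab1 and −2.99 for Folr2.

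Within the 2 mixed libraries, which held 6 control and 6 KO tumours, the means over both libraries lay in the same direction. Folr2 averaged 80.9 CPM in control and 40.3 in KO tumours, Stab1 153 and 91.4, and Mrc1 375 and 264. Lines 15 and 19 shared the first mixed library, where Mrc1 averaged 366 and 365 CPM, Stab1 132 and 121, and Folr2 82.3 and 60.9. There line 19 lay above line 15 for Mrc1 on days 6 and 10, Stab1 on day 10 and Folr2 on day 6, and below it otherwise. In a fit on the 12 tumours of the mixed libraries, none of the 3 receptors passed (log2 fold changes −1.20, −0.66 and −0.42, edgeR adjusted p = 0.118, 0.292 and 0.298). With library as a term over all tumours, Folr2 passed (log2 fold change −1.15, edgeR adjusted p = 0.0432) and Stab1 (adjusted p = 0.240) and Mrc1 (adjusted p = 0.244) did not. With 1 sum per line, which leaves 2 values a group, none of the 3 passed (log2 fold changes −1.87, −1.12 and −0.71 for Folr2, Stab1 and Mrc1). Of all genes tested, 4.98% were called in the mixed libraries, 6.51% with the library term and 0.0248% with 1 sum per line, against 35.0% over all tumours.

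Other properties moved with the groups. Median depth was 3099 UMIs per macrophage in control and 2425 in KO tumours. After thinning to 2000 UMIs the differences were as large (log2 fold changes −1.79 for Folr2, −0.97 for Stab1 and −0.61 for Mrc1, edgeR adjusted p = 5.33e-06, 0.00134 and 0.00896). The summed level of 6 monocyte markers in the macrophage gate ranged over 131.9, 256.3 and 1304 CPM in control tumours and over 321.4, 802.2 and 1512 CPM in KO tumours. For 6 T and NK cell markers the sums ranged over 0, 2.52 and 43.1 CPM in control tumours and over 2.52, 19.6 and 112 CPM in KO tumours, and for 5 osteoclast markers over 53.2, 406 and 1939 CPM and over 56.6, 159 and 390 CPM. No marker of these 3 lists was at 0 over the group, and the part of these cells in the receptor differences was not tested.

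**Figure D3:**
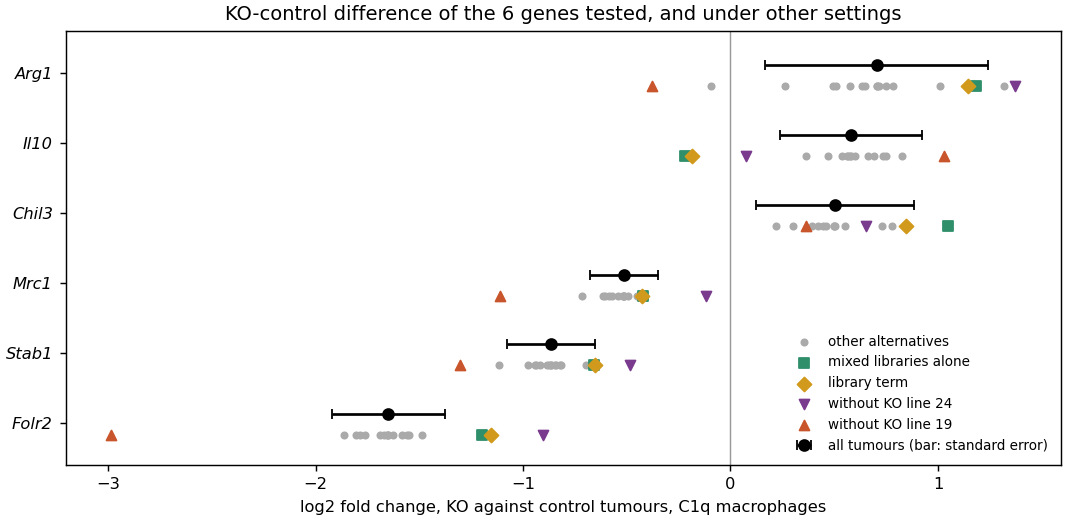
Log2 fold change (KO over control) of the 6 genes tested in C1q macrophages, with the edgeR value over all tumours and its SE as a black point and bar, and the values under other settings below it. Folr2 (−1.65), Stab1 (−0.87) and Mrc1 (−0.51) lie below 0 under every setting shown, without line 24 closest to 0, while Arg1 and Il10 lie on both sides of 0.

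Cd163, the remaining receptor, was scarcely detected. It gave 45 UMIs in 36 of 10180 macrophages. It was seen in 0.209% of thinned macrophages (exact binomial interval 0.117 to 0.344) and 0 of 1407 T cells. So few T cells allow a share of up to 0.213%, and they cannot tell the macrophage share from free RNA. Among thinned non-immune cells Cd163 was seen in 0 of 55867, with an exact upper limit of 0.0066%. The macrophage share lay above that limit. The gene was at 0 in 7 of 18 control and 13 of 17 KO tumours, its highest value was 5.47 CPM, and it fell below the count filter in every comparison.

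Mrc1 and Stab1 also differed between days, in a fit over the 35 tumours with line as a covariate. In macrophages 7 of the 10 genes passed the filter and 4 were called between day 10 and day 6, against 6.29% of all genes tested, and 4 between day 16 and day 6, against 12.1%. Mrc1 ranged over 75.6, 181 and 255 CPM on day 6 (11 tumours), over 176, 399 and 486 on day 10 (12 tumours) and over 98.1, 350.5 and 521 on day 16 (12 tumours). It rose 2.12-fold by day 10 (log2 fold change 1.09, SE 0.16, edgeR adjusted p = 7.10e-05) and was 1.91-fold above day 6 on day 16 (log2 fold change 0.93, SE 0.16, edgeR adjusted p = 0.000178). The day 6 range overlapped that of both later days. In line 24 the day 16 mean was not higher, with Mrc1 at 137, 198 and 126 CPM on days 6, 10 and 16.

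Stab1 ranged over 23.4, 67.4 and 106 CPM on day 6, over 50.2, 132 and 203 on day 10, and over 40.1, 142 and 316 on day 16. It was 2.26-fold higher on day 10 (SE 0.25 on the log2 scale, edgeR adjusted p = 0.00402) and 2.55-fold higher on day 16 (SE 0.25 on the log2 scale, edgeR adjusted p = 0.000338). Line 24 went the other way, with mean Stab1 of 76.1, 64.6 and 47.8 CPM on days 6, 10 and 16. The day 10 call was lost without line 19 (log2 fold change 0.73, edgeR adjusted p = 0.176) and after thinning (edgeR adjusted p = 0.0567). Folr2 did not pass on either day, with log2 fold changes of 0.065 on day 10 and 0.28 on day 16 (edgeR adjusted p = 0.925 and 0.490).

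The mean levels per group and day showed how the groups stood at each time. Mrc1 averaged 199, 380 and 425 CPM on days 6, 10 and 16 in control tumours and 148, 318 and 227 CPM in KO tumours. Stab1 averaged 79.1, 136 and 222 CPM in control tumours and 48.8, 114 and 75.8 CPM in KO tumours. Folr2 averaged 70.0, 89.0 and 111 CPM in control tumours and 44.9, 27.1 and 27.0 CPM in KO tumours. The KO mean was the lower one on every day for all 3 receptors, but not in both KO lines. On day 10 line 19 averaged 438 CPM for Mrc1, above lines 15 (391) and 18 (370), and line 24 averaged 198. For Stab1 on that day line 19 averaged 164 CPM, above lines 15 (149.5) and 18 (122.5), and line 24 averaged 64.6. On day 6 Stab1 averaged 76.1 CPM in line 24, near lines 15 (78.0) and 18 (80.25), and 30.6 in line 19. For Folr2 both KO lines lay below both control lines on each day. Whether the KO difference itself changed with day was tested by an interaction, and none of the 3 passed (edgeR adjusted p = 0.629 for Mrc1, 0.240 for Stab1 and 0.302 for Folr2).

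**Figure D4:**
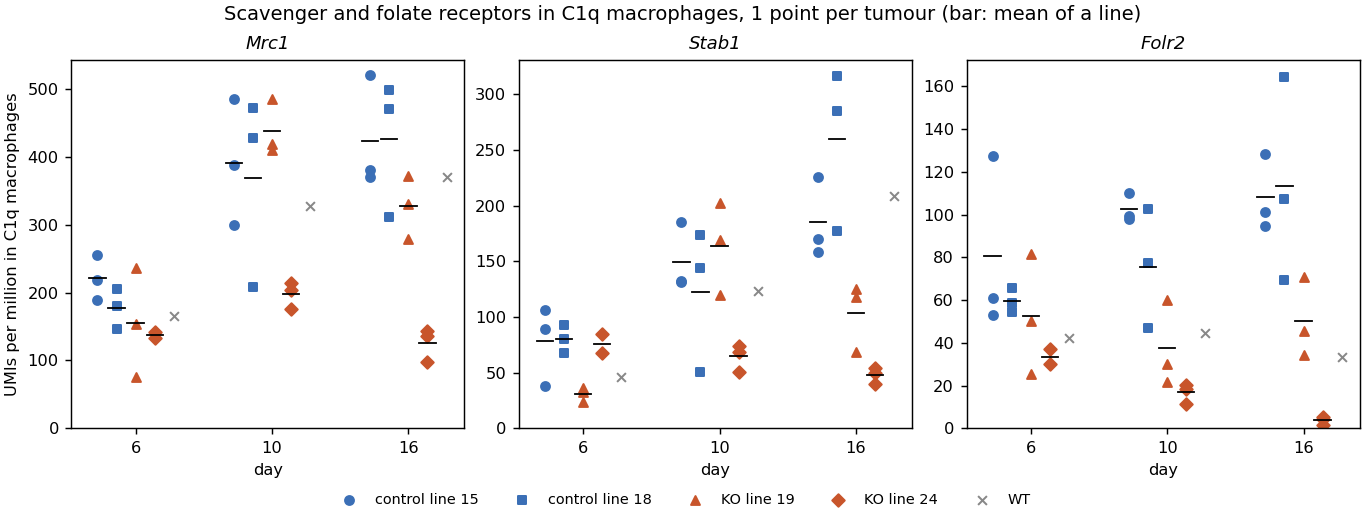
Level of Mrc1, Stab1 and Folr2 in C1q macrophages (CPM) by the day in the deposited sheet, with 1 point per tumour, a symbol per line, a bar at the mean of each line, and the WT tumours as crosses. Line 24 holds the lowest Folr2 values on day 16, between 1.76 and 5.52.

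Arg1 in macrophages passed neither between groups nor between days. It ranged over 4.59, 18.4 and 126.5 CPM in control tumours and over 0, 23.2 and 639 CPM in KO tumours, and the log2 fold change of 0.70 did not pass (SE 0.54, edgeR adjusted p = 0.316). The highest value, 638.5 CPM, was tumour B of line 19 on day 16, where 25 of 69 macrophages held 112 Arg1 UMIs and no cell held more than 24. Without that tumour the fold change was −0.094 (edgeR adjusted p = 0.887), so its sign rested on 1 tumour. Between days the log2 fold changes were 0.15 on day 10 and 0.56 on day 16 (edgeR adjusted p = 0.939 and 0.631), and the day 16 difference passed only without the count filter (adjusted p = 0.0191).

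Chil3 in macrophages fell with time. It ranged over 0, 22.5 and 106 CPM on day 6, over 0, 4.94 and 22.9 on day 10, and over 2.61, 5.11 and 51.3 on day 16. It was 3.36-fold lower on day 10 (log2 fold change −1.75, edgeR adjusted p = 0.0212) and 3.86-fold lower on day 16 (log2 fold change −1.95, SE 0.46, edgeR adjusted p = 0.00385). The day 10 call was lost without line 15, 19 or 24 (edgeR adjusted p = 0.0530, 0.216 and 0.1315) and with another hashtag call (adjusted p = 0.0501), and the day 16 call held without each line. Chil3 averaged 21.2, 14.1 and 6.60 CPM over the days in control and 56.3, 5.14 and 15.6 CPM in KO macrophages. In line 18 the day 10 mean (13.8 CPM) was not below that of day 6 (10.6). The KO difference did not pass (log2 fold change 0.50, SE 0.38, edgeR adjusted p = 0.310). In monocytes, where Chil3 stood higher, it averaged 335, 246 and 173 CPM on days 6, 10 and 16, and days were not tested there. The part of monocyte RNA in the macrophage values was not tested.

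Retnla, which encodes the secreted protein RELMα (Fizz1), was confined to few cells in these samples. It gave 231 UMIs in 23 of 10180 macrophages, 58.4% of them from 5 cells, and 174 UMIs in 8 monocytes, 97.1% of them from 5 cells. In macrophages it gave 10 UMIs in 2 cells of control tumours and 169 UMIs in 19 cells of KO tumours. The gene was at 0 in 16 of 18 control and 8 of 17 KO tumours, and 8 KO tumours lay above every control. The tumours called WT stood at 19.25, 0 and 26.2 CPM on days 6, 10 and 16, while the highest control stood at 3.17. The WT level came from 52 UMIs in 2 cells, so a level above every control was not confined to KO tumours. The highest level, 225 CPM in tumour A of line 24 on day 6, came from 30 UMIs in 1 of 60 cells. Retnla was below the count filter, and without a filter the difference was called (log2 fold change 4.66, edgeR adjusted p = 1.05e-06).

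**Figure D5:**
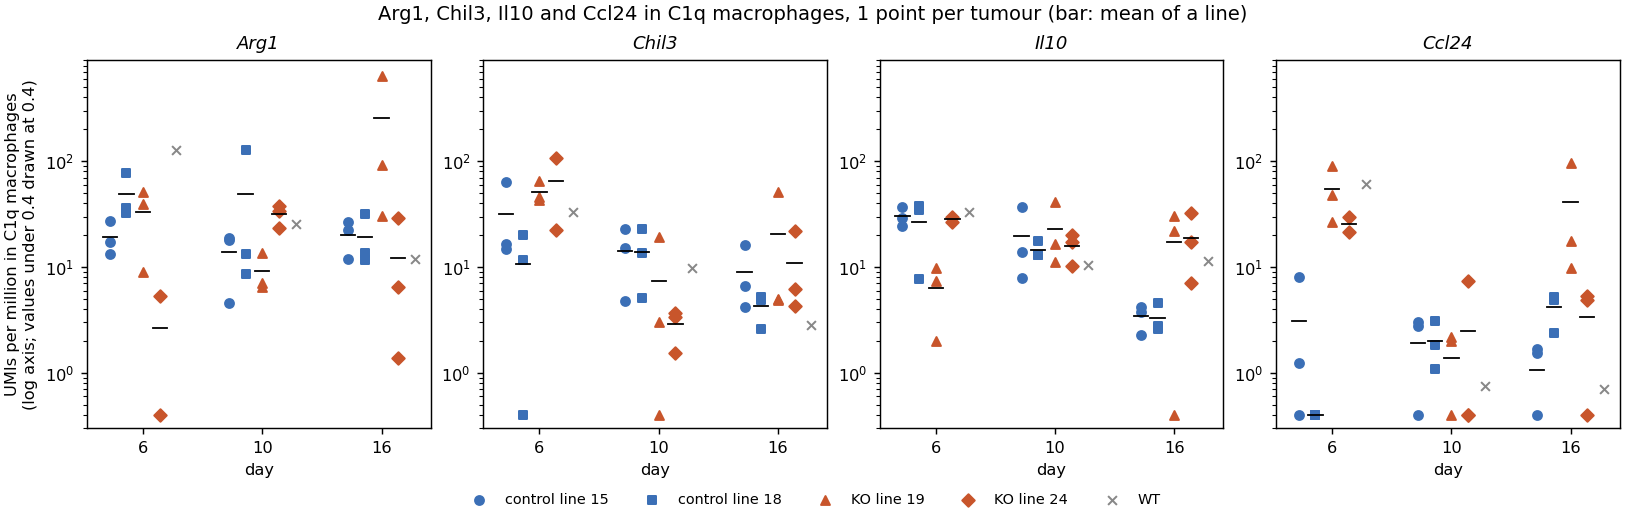
Level of Arg1, Chil3, Il10 and Ccl24 in C1q macrophages (CPM, log axis, values under 0.4 drawn at 0.4) by day, with 1 point per tumour, a symbol per line a bar at the mean of each line and the WT tumours as crosses. Il10 is between 2.29 and 4.58 in all 6 control tumours on day 16, and 1 tumour of line 19 stands at 638.5 for Arg1.

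Il10 was the only one of the 7 genes tested whose KO difference changed with day by the interaction test (edgeR adjusted p = 0.00278), beside 0.887% of all genes. In the same test 6 of the 7 had an unadjusted p under 0.05, beside 1007 of all 7890 genes tested. Chil3 (edgeR adjusted p = 0.0897) passed only without line 15 (0.0413) or without the count filter (0.0299). In control macrophages Il10 averaged 28.6 ± 11.4 CPM on day 6, 17.0 ± 10.3 on day 10 and 3.38 ± 0.939 on day 16 (SD, n = 6 each). On day 16 the 6 control tumours stood at 3.77, 2.29, 4.22, 2.61, 2.79 and 4.58 CPM. On day 6 the 3 tumours of line 19 stood at 9.76, 7.41 and 1.99 CPM and the 2 of line 24 at 29.9 and 26.5. In KO macrophages it averaged 15.1 ± 12.4 CPM (SD, n = 5), 19.4 ± 11.4 (SD, n = 6) and 18.2 ± 12.8 (SD, n = 6) on the same days. On day 16 the KO tumours stood at 30.2, 0, 22.0, 17.3, 32.5 and 7.04 CPM, so 5 of the 6 lay above every control tumour of that day and 1 had no Il10 UMI.

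Over both groups Il10 was lower on day 16 than on day 6 (log2 fold change −1.54, SE 0.45, edgeR adjusted p = 0.0197) and did not pass on day 10 (log2 fold change −0.48, edgeR adjusted p = 0.549). The day 16 call was lost under 3 of 15 other settings. Among these were the fits without line 15 (log2 fold change −0.79, edgeR adjusted p = 0.514) and without line 18 (log2 fold change −0.98, edgeR adjusted p = 0.285). The interaction was lost without line 18 (edgeR adjusted p = 0.0644), without line 24 (0.0535) and after thinning (0.0943). The KO difference over all days did not pass (log2 fold change 0.58, SE 0.34, edgeR adjusted p = 0.189), and passed without line 19 (1.03, adjusted p = 0.0181). Its sign turned in the mixed libraries alone (log2 fold change −0.22) and with a library term. In the mixed libraries Il10 averaged 15.2 CPM in control and 13.1 CPM in KO tumours.

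Ccl24 in macrophages ranged over 0, 7.98 and 89.8 CPM on day 6, over 0, 1.93 and 7.43 on day 10, and over 0, 4.88 and 96.9 on day 16. It was lower on day 10 than on day 6 (log2 fold change −2.36, SE 0.62, edgeR adjusted p = 0.0198). The lower day 10 level was seen in KO tumours, where the mean went from 43.1 CPM on day 6 to 1.94 on day 10 and 22.4 on day 16, while control means were 1.54, 1.97 and 2.63 CPM. The KO difference in Ccl24 did not pass the test of change with day (edgeR adjusted p = 0.327). The day 10 call was lost with DESeq2 (adjusted p = 0.114), with another hashtag call (edgeR adjusted p = 0.2825) and with the C1q sum of at least 3 as the only gate (adjusted p = 0.0508). Without tumour B of line 19 on day 16, day 16 was also lower than day 6 (log2 fold change −1.53, edgeR adjusted p = 0.0463), which it was not with all tumours (−0.96, adjusted p = 0.247). Over all days line 19 had the highest mean Ccl24 at 32.5 CPM, line 24 came next at 8.59, and the control lines 15 and 18 averaged 2.03 and 2.06. In macrophages, control tumours gave 49 UMIs in 35 cells and KO tumours 156 UMIs in 52 cells, and 8 of 17 KO tumours lay above every control. The tumours called WT stood at 60.3, 0.754 and 0.708 CPM on days 6, 10 and 16, while the highest control stood at 7.98. Neither a level above every control nor the lower level on day 10 was thus confined to KO tumours. Between groups Ccl24 was below the count filter, and without a filter it was called higher in KO tumours (log2 fold change 2.70, edgeR adjusted p = 9.45e-06).

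Ccl17 was sparse in macrophages, with 36 UMIs in 11 cells of control tumours and 60 UMIs in 28 cells of KO tumours. The highest control cell held 25 of these UMIs, and line 24's own library gave 45 of the KO UMIs. It was at 0 in 11 of 18 control and 7 of 17 KO tumours, and 4 KO tumours lay above every control. It was below the count filter, and without a filter it was called higher in KO tumours (log2 fold change 2.08, edgeR adjusted p = 0.00273). For Retnla, Ccl24 and Ccl17 alike, the KO difference in macrophages therefore rests on 19 to 52 cells of KO tumours.

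In C1q-negative monocytes the receptors were again lower in KO tumours. Over 18 control and 16 KO tumours, 3 of the 10 genes passed the filter and 2 were called in edgeR, both lower, beside 26.0% of all genes tested. Mrc1 ranged over 37.7, 93.1 and 237 CPM in control and over 5.29, 31.6 and 185 CPM in KO tumours, and 10 of 16 KO tumours lay below every control. It was 3.04-fold lower (log2 fold change −1.60, SE 0.28, edgeR adjusted p = 7.34e-05). Stab1 ranged over 12.1, 28.8 and 59.2 CPM in control and over 0, 12.4 and 35.4 CPM in KO tumours, and was 2.21-fold lower (log2 fold change −1.14, SE 0.26, edgeR adjusted p = 0.00132). The 3 tumours called WT, which are in neither group, held 164, 44 and 37 monocytes on days 6, 10 and 16. In them Mrc1 stood at 60.1, 25.9 and 33.7 CPM and Stab1 at 9.61, 19.4 and 0 CPM. Levels below every control were thus not confined to KO tumours.

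Chil3, the gene of the set that marked monocytes, did not pass between groups there. It ranged over 96.9, 181 and 812 CPM in control and over 64.7, 253 and 614 CPM in KO monocytes (log2 fold change 0.027, SE 0.24, edgeR adjusted p = 0.964). Under other settings the log2 fold change of Chil3 ran from −0.94, after thinning, to 0.61, and it passed under none. Folr2, below the count filter, gave 80 UMIs in control and 9 in KO monocytes, and 14 of 18 control tumours lay above every KO tumour. Arg1, also below the filter, was at 0 in 0 of 18 control and 10 of 16 KO tumours, with a highest value of 136 CPM in control and 195 CPM in KO tumours. Without a filter both were called lower (log2 fold changes −2.37 and −1.41, edgeR adjusted p = 4.84e-05 and 0.0279). In monocytes of the tumours called WT, Folr2 stood at 2.40, 0 and 0 CPM and Arg1 at 28.8, 0 and 0 CPM on days 6, 10 and 16. Of the other sparse genes, Retnla, Ccl24 and Ccl17 lay the other way in monocytes. Il10 gave 35 UMIs in control and 36 in KO monocytes, and Cd163 gave 0 and 1. Neither was called without a filter (edgeR adjusted p = 0.663 and 0.309). Retnla gave 27 UMIs in 2 cells of control tumours and 141 UMIs in the 16 KO tumours tested, and over all KO tumours its 147 UMIs came from 6 cells. Ccl24 gave 36 UMIs in 21 cells of control and 117 in 47 cells of KO tumours, and Ccl17 gave 5 UMIs in 4 cells and 42 in 18. In the tumours called WT, Ccl24 stood at 67.3, 0 and 0 CPM on days 6, 10 and 16, with the highest control at 26.5. Ccl17 stood at 4.81, 0 and 13.5 CPM in them, with the highest control at 5.18. Without a filter Retnla, Ccl24 and Ccl17 were called higher in KO tumours (log2 fold changes 4.12, 2.10 and 3.54, edgeR adjusted p = 9.90e-08, 0.000392 and 8.75e-06). The Retnla call rests on few cells, with 76 of the KO UMIs in 1 cell, and the gene was at 0 in 11 of 16 KO tumours.

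Both monocyte calls were lost without line 24, and that of Stab1 also in the fits that account for library. Mrc1 averaged 92.0, 102, 62.2 and 20.05 CPM in lines 15, 18, 19 and 24. Without line 24 neither passed in edgeR (log2 fold change −0.86 and adjusted p = 0.0971 for Mrc1, −1.19 and 0.0574 for Stab1). Within the mixed libraries Mrc1 kept its call (log2 fold change −2.15, edgeR adjusted p = 0.0076) and Stab1 did not (log2 fold change −1.13, edgeR adjusted p = 0.190), nor did Stab1 with a library term (−1.25, adjusted p = 0.165) or with 1 sum per line (−1.13, adjusted p = 0.0664). Mrc1 kept its call with a library term (log2 fold change −2.004, edgeR adjusted p = 0.0122) and with 1 sum per line (−1.79, adjusted p = 0.0435). The osteoclast marker sum in the monocyte gate ranged over 33.3, 4028 and 17100 CPM in control and over 11.7, 60.0 and 4904 CPM in KO tumours. Without cells of more than 2 osteoclast UMIs, Mrc1 was still lower (log2 fold change −1.998, edgeR adjusted p = 2.21e-06) and Stab1 fell below the count filter. The T and NK marker sum had medians of 11.05 CPM in control and 126.6 CPM in KO tumours, and its part in the difference was not tested. The summed level of 7 macrophage markers in the monocyte gate ranged over 833.3, 1348 and 2451 CPM in KO tumours and over 1351, 2371 and 3951 CPM in control tumours, and that of 6 monocyte markers over 1794, 3515 and 3902 CPM and over 1039, 2271 and 5186 CPM. The macrophage marker sum thus lay lower in KO tumours, as the receptors did, and its part in the receptor differences was not tested. No osteoclast, T or NK marker of the lists was at 0 over the monocytes.

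In dendritic cells 5 control and 12 KO tumours had enough cells, and only Ccl17 passed the count filter. No member was called in edgeR or in DESeq2, none had an unadjusted p under 0.05, and 2.14% of all genes were called. In edgeR 401 of all 2621 genes tested had an unadjusted p under 0.05. Ccl17 stood at 0, 10.8, 38.9, 114 and 172 CPM in the control tumours and ranged over 0, 115 and 1037 CPM in the KO tumours. The difference did not pass (log2 fold change 1.36, SE 0.75, edgeR adjusted p = 0.407), and 4 KO tumours lay above every control. Without the count filter it was called (log2 fold change 1.51, edgeR adjusted p = 0.000103), and under the other settings the value ranged from 0.12 without line 19 to 2.05 without line 24. Ccl24, below the filter, was also called without it (log2 fold change 4.09, edgeR adjusted p = 4.11e-06), from 77 UMIs in the 12 KO tumours and 2 UMIs in the 5 control tumours. Of the 77, 39 came from tumour C of line 24 and 29 from tumour A of line 19, both of day 6. Ccl24 was at 0 in 6 of 12 KO and 4 of 5 control tumours. Of the control tumours, 4 were from day 6 and 1 from day 16. In the dendritic gate the summed level of 6 monocyte markers ranged over 262.9, 315.4 and 849.2 CPM in control and over 421.2, 671.3 and 1165 CPM in KO tumours, and that of 7 macrophage markers over 302.6, 350.4 and 570.9 CPM and over 93.59, 195.3 and 354.8 CPM. No marker of these lists was at 0, and their part in the Ccl17 and Ccl24 differences was not tested.

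Other genes of the pathway were read from lists chosen by name. Values of these list genes come from the fits over all tumours. Whether their calls hold without a line, in the mixed libraries or with a library term was not tested. The summed level of 8 dendritic markers in the macrophage gate had medians of 207.6 CPM in control and 270.6 CPM in KO tumours. Its part in the KO differences of the list genes was not tested. Of 15 genes of the IL-4 and IL-13 pathway, 12 were tested between KO and control macrophages and 6 were called, 4 higher and 2 lower in KO tumours, beside 35.0% of all genes tested, with a median log2 fold change of 0.20. The receptor chains Il4ra (−0.028) and Il13ra1 (0.32), the kinases Jak3 (0.18) and Tyk2 (0.082) and the factor Stat6 (−0.12) did not pass. The receptor chain Il2rg was lower in KO tumours (log2 fold change −0.37, edgeR adjusted p = 0.0154) and the kinase Jak1 higher (0.22, adjusted p = 0.0286). Cish, a feedback inhibitor of cytokine signalling, rose by 1.79 on the log2 scale (edgeR adjusted p = 1.52e-06), and Kdm6b, a histone demethylase, by 1.23 (edgeR adjusted p = 2.52e-06). Pparg, a lipid-sensing nuclear receptor, was lower (log2 fold change −0.77, edgeR adjusted p = 0.0446). In monocytes 5 of 9 tested genes of this list were called, all higher in KO tumours, Cish and Kdm6b among them, beside 26.0% of all genes tested.

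Of 20 further alternative activation genes, 13 were tested in macrophages and 6 were called, 4 higher and 2 lower in KO tumours, beside the same 35.0%, with a median of 0.26. Mgl2, a C-type lectin, rose by 1.34 (edgeR adjusted p = 0.00113), Pdcd1lg2, which encodes PD-L2, by 1.78 (edgeR adjusted p = 0.00311) and the transcription factor Egr2 by 1.28 (edgeR adjusted p = 3.35e-07), all on the log2 scale. Gas6, a ligand of TAM receptors, was lower (log2 fold change −1.25, edgeR adjusted p = 0.00115), as were the receptors Mrc1, Stab1 and Folr2. Genes that share the label of alternative activation thus moved in both directions between the same tumours.

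Of 11 genes of arginine metabolism, 9 were tested and 5 were called, 3 higher and 2 lower, again beside 35.0%. Gatm, which uses arginine to make a creatine precursor, rose by 1.12 on the log2 scale (edgeR adjusted p = 0.000271). The spermine synthase gene Sms was lower (log2 fold change −0.57, edgeR adjusted p = 3.50e-05). Nos2, the nitric oxide synthase that competes with Arg1 for arginine, did not pass (log2 fold change 0.89, SE 0.58, edgeR adjusted p = 0.235). Of 5 genes of the IL-10 pathway, all were tested and 3 were called, Stat3 higher and Il10rb and Socs3 lower, beside 35.0%. Between day 16 and day 6, 7 of 13 tested genes of the further alternative activation list were called, 6 higher and 1 lower, and 2 of 12 of the IL-4 and IL-13 list, both lower, beside 12.1% of all genes tested. Of these, Mgl2 (log2 fold change 2.37), Igf1 (2.11) and Gas6 (1.78) were called higher and Kdm6b (−1.05) and Socs1 (−1.02) lower.

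In the test of whether the KO difference changed with day, 1 of 12 tested genes of the IL-4 and IL-13 list, 1 of 13 further alternative activation genes, 2 of 11 arginine genes and 0 of 5 IL-10 pathway genes were called, beside 0.887% of all genes tested. Kdm6b (edgeR adjusted p = 0.00278) averaged 160.5, 94.0 and 44.6 CPM on days 6, 10 and 16 in control macrophages and 197, 184 and 188 CPM in KO macrophages. Clec10a, a C-type lectin (edgeR adjusted p = 0.0204), averaged 11.5, 11.3 and 19.2 CPM in control and 39.0, 21.5 and 11.4 CPM in KO macrophages, so the KO mean was the higher one on days 6 and 10 and the lower one on day 16. Odc1, the ornithine decarboxylase that starts polyamine synthesis (edgeR adjusted p = 0.0122), averaged 341, 310 and 234 CPM in control and 297, 356 and 384 CPM in KO macrophages. Nos2 (edgeR adjusted p = 0.0427) averaged 4.40, 20.8 and 9.13 CPM in control and 19.8, 2.91 and 46.9 CPM in KO macrophages, and ranged from 0 to 98.15 CPM over the control tumours of day 10 and from 4.89 to 163.9 CPM over the KO tumours of day 16. In each of these sets 1 tumour held more than the others together, and whether the call holds without them was not tested. The differences over all days given above for Kdm6b and Nos2 are therefore averages over days that were not alike.

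Across the 35 tumours, Mrc1 and Stab1 levels in macrophages ran together (Spearman's rho 0.854), Folr2 less closely with either (0.637 with Stab1 and 0.624 with Mrc1), and Chil3 ran weakly against Stab1 (−0.372). The value for Arg1 with Mrc1 was −0.00868. These values are descriptions over tumours that share libraries, lines and depth. In single macrophages thinned to 2000 UMIs, Stab1 was seen in 33.7% of the 2532 cells with an Mrc1 UMI and in 12.6% of the 3984 cells without one, and the share was higher with Mrc1 in 33 of 35 tumours. Folr2 was seen in 18.6% and 7.76% of the same cells.

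Among 6953 other genes with enough counts, those most like Mrc1 over the 35 tumours by Spearman's rho were Ap1b1 (0.909), Dab2 (0.893) and Pf4 (0.859). Those most like Stab1 were Gas6 (0.892), Fcrls (0.880) and Snx2 (0.874), and those most like Folr2 were Ap2s1 (0.867), Ctsb (0.864) and Pid1 (0.856). Chil3 was most like Isg20 (0.767), Ciao2b (0.749) and Parp14 (0.744). For Il10 the highest value was 0.613, with Hax1, and for Arg1 it was 0.595, with Mt1, so neither had a gene that followed it as closely as those of the receptors did.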

How the data were processed

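The deposited matrices of 6 gene expression libraries hold UMI counts per gene, not normalized, with hashtag counts as further rows. The submitters' processing notes name Cell Ranger 6.0.0 and mm10, and an annotation was not given in the sources used here. Line, day and letter of each hashtag came from a deposited sheet, and the line set a tumour's group. Of 47 hashtags, 2 were dropped for holding under 0.1% of a library's hashtag counts (line 18, day 0, B and line 24, day 6, B).

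Cells with 300 or more genes and no more than 15% mitochondrial counts were kept. HTODemux in Seurat 5.3.0 (quantile 0.99) assigned 100459 cells to 1 hashtag. Doublets between hashtags, 17.9% to 30.9% of cells, were dropped, and doublets within a tumour remain. All 3 myeloid gates allowed at most 1 UMI of Cd3d, Cd3e and Cd3g and at most 1 of Cd79a, Cd79b and Ms4a1. Counts were summed per tumour and class where a tumour had at least 20 cells, which gave 60 to 718 macrophages per tumour. Levels are UMIs per 1000000 UMIs of the class sum (CPM), with no further scaling.

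Tests used edgeR 4.0.16 in R 4.3.3 (filterByExpr, TMM, glmQLFit, glmQLFTest) on all genes, with Benjamini-Hochberg adjustment and a threshold of 0.05. Covariates were day for KO against control, line for days, and tumour between classes. An SE is the log2 fold change divided by the root of its F statistic. Thinning drew 2000 UMIs per cell and left out shallower cells. The fits were tested on simulated data. Other settings were RLE scaling, DESeq2 1.42.0, no count filter, at least 50 cells, another hashtag call, a stricter cell filter, thinning, a C1q sum of at least 10, the C1q sum alone, mixed libraries alone, a library term, 1 sum per line, a replicate block, and each line left out.

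All 10 members are named, and other genes only from 4 lists or as the 3 most like a member by Spearman's rho. The members and lists were chosen with earlier results of these data known. Clec7a is not analysed here. Promoter sequences are from RefSeq (GRCm38.p6), and Arg1, Ccl24 and Il10 had no entry in the table used.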

Additional observations from a re-analysis of the deposited data

Results flagged for a closer look

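Within each line, macrophage levels of the members over its tumours were examined for a sample far from the others, in 24 sets of values, of which chance would mark about 1 in 20. Arg1 stood at 638.5 CPM in tumour B of line 19 on day 16, far above the other 8 tumours of that line. Chil3 stood at 63.86 CPM in tumour B of line 15 on day 6, from 24 UMIs in 13 of 184 cells. Chil3 stood at 106.1 CPM in tumour C of line 24 on day 6, from 20 UMIs in 7 of 90 cells, 12 of them in 1 cell.

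The KO difference in macrophage Il10 changed with day by the interaction test (edgeR adjusted p = 0.002781). The control mean went from 28.6 CPM on day 6 to 3.38 on day 16, and the KO mean from 15.1 to 18.2.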

How the results depend on the processing

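Of 665 alternative values over 47 results, 591 kept their direction and side of the threshold, 32 lost a call, 15 gained one and 27 changed sign. In the counts of members called that follow, the percent in brackets is the share of all genes called at the same setting. Between KO and control macrophages 3 members were called (35.0%), and 6 with no count filter (17.6%), 1 with a library term (6.51%), 0 in the mixed libraries alone (4.98%), 0 with 1 sum per line (0.0248%), and 1 to 4 when 1 line was left out (9.84% to 37.0%). In monocytes 2 were called (26.0%), and 7 with no count filter (9.87%), 1 after thinning (16.2%), 1 in the mixed libraries alone (4.87%), 1 without cells of high osteoclast sum (18.6%), and 0 to 3 without 1 line (3.54% to 26.5%). In dendritic cells 0 were called (2.14%), and 2 with no count filter (0.849%). Between day 16 and day 6, 4 were called (12.1%), and 7 with no count filter (6.06%). Between day 10 and day 6, 4 were called (6.29%), and 2 with the ratio hashtag call (3.91%), 1 after thinning (4.42%), 2 at a C1q sum of at least 10 (5.71%), and 1 to 4 without 1 line (1.37% to 10.9%). By interaction 1 was called (0.887%), and 2 with no count filter (0.562%), 0 after thinning (1.47%), and 0 to 2 without 1 line (0.0123% to 2.26%).

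The sign changes all concerned differences that had not passed. Between KO and control macrophages, Il10 was −0.22 in the mixed libraries and −0.18 with a library term, and Arg1 was −0.38 to 1.37 without 1 line and −0.094 without tumour B of line 19, day 16. In monocytes Chil3 was −0.048 with no count filter, −0.043 at 50 cells, −0.10 with the ratio hashtag call, −0.94 after thinning, −0.40 without cells of high osteoclast sum and −0.27 to 0.41 without 1 line. On day 16 Folr2 was −0.23 after thinning, −0.082 at a C1q sum of 10 and −0.011 to 0.45 without 1 line, and Arg1 was −0.55 to 1.28 without 1 line and −0.34 without that tumour. On day 10 Folr2 was −0.013 in DESeq2, −0.44 after thinning, −0.23 at a C1q sum of 10 and −0.078 to 0.26 without 1 line, and Arg1 was −0.22 to 0.39 without 1 line. Between macrophages and monocytes after thinning, Arg1 was −0.037 and Ccl24 0.18. Between macrophages and dendritic cells Ccl24 was −0.22 in DESeq2, −0.31 at 50 cells, −0.51 with the ratio hashtag call, −0.43 after thinning and −0.66 at a C1q sum of 10. The cause of these changes was not tested.

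Leaving out cells of high osteoclast sum, leaving out tumour B of line 19, day 16, and the replicate block were chosen after seeing the data. The library term also let more genes past the count filter (8314 against 7458 in macrophages). At least 50 dendritic cells per tumour was not run for KO against control, because too few control tumours remained.

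Control and KO tumours share the letters A, B and C in the sheet, and no label says that a letter marks anything held in common. Over the 9 sets of 1 day and 1 letter, the macrophage deviations of control and KO tumours from their line and day means correlated over 6685 genes by −0.0488 to 0.195, and 1 set lay above 0.1. With a replicate block for day and letter, the members called numbered 3 in macrophages, 2 in monocytes and 0 in dendritic cells, as without it, and over all genes the dendritic count went from 56 to 35. Macrophage counts of Cd163, Retnla, Ccl24 and Ccl17 came from 36, 23, 108 and 40 cells.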

Other observations

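The 3 tumours called WT, all in the second mixed library, had 273, 286 and 332 C1q macrophages on days 6, 10 and 16. Mrc1 stood at 166, 328 and 370 CPM in them on these days, and Stab1 at 46.2, 124 and 209 CPM. Folr2 stood at 42.4, 44.5 and 33.3 CPM. Arg1 stood at 127, 25.6 and 12.04 CPM, Chil3 at 33.4, 9.80 and 2.83 CPM, and Il10 at 33.4, 10.6 and 11.3 CPM. Ccl24 stood at 60.3, 0.754 and 0.708 CPM, and Retnla at 19.25, 0 and 26.2 CPM. Mif in their non-immune cells was between 2209 and 2597 CPM.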
